A study of Homo sapiens with 32 samples.

Results

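The regions described are m6A peaks outside annotated genes. They are the peaks of 12 deposited lists, on chromosomes 1 to 22 and X, that overlapped no gene body of the RefSeq table of GRCh38.p14 on either strand. Of 338017 peaks, 22060 met this rule and are called intergenic. The other 315957 overlapped a gene body and are called genic. The same locus can be counted once in each list. When all peaks of the 12 lists were merged where they overlapped on one strand, 8478 of the merged regions overlapped no gene body. Intergenic peaks that merged with a genic peak are not among these regions.

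MeRIP-seq enriches fragments of RNA that bind an antibody to N6-methyladenosine (m6A), and here it was run on the RNA held on chromatin in 4 human cancer lines. METTL3 is the catalytic subunit of the m6A methyltransferase, and its short-hairpin knockdown was compared with a control in each line. OVCAR8 and SKOV3 are ovarian cancer lines with 2 knockdown and 2 control lists each, 1 per library. LOVO and RKO are colorectal cancer lines with 1 knockdown and 1 control list each, taken as the authors' value of a group, with no replicate list. The control genotype is given as WT, and the labels give no hairpin sequence, dose, time or clone. Nothing in the labels says that replicates were separate cultures, so p-values measure the spread between these lists only. The peak lists hold no expression level and so do not check the knockdown. METTL3 itself carried 0 to 3 peaks per list in either condition.

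Chromatin-associated RNA holds transcripts that have not left the site of transcription. RNA polymerase II often runs past the end of a gene before it stops, and it also starts in the opposite direction at many promoters, which gives short-lived RNA outside the annotated gene. METTL3 methylates RNA while it is transcribed, mostly at adenosines in a short motif with GGAC at its core, so RNA of these kinds can carry m6A. Transcripts of repeats such as LINE-1 also lie partly outside genes, but no repeat annotation was used here.

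Promoter windows that intergenic peaks reached in most lists are printed as examples, and they are not typical of intergenic peaks. Each runs from 250 bases before to 50 bases after an annotated gene start, is read on the strand of its gene from the 5′ end, and comes from RefSeq (GRCh38.p14). Capitals mark GGAC where the peak lay on the strand of the gene, and its reverse complement GTCC where the peak lay on the opposite strand, so that the RNA of that peak would read GGAC.
UEVLD: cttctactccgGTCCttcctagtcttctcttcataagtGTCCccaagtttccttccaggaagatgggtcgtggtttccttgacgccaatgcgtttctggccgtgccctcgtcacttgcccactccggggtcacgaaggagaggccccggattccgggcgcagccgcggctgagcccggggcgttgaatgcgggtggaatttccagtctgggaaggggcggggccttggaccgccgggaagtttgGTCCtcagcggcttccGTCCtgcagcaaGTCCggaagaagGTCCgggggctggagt
RNF214: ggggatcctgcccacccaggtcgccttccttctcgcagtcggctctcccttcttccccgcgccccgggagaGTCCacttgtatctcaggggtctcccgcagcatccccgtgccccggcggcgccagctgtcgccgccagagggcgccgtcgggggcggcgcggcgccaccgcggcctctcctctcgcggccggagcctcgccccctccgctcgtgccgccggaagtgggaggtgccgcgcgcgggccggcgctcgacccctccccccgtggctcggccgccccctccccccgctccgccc
DDX41: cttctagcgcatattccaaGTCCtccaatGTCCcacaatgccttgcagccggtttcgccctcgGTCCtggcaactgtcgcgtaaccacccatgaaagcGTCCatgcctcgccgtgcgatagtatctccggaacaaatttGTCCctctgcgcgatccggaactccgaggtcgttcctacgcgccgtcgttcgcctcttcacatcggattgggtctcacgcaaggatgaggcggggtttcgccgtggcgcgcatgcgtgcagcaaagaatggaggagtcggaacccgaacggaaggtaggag
CHRNA10: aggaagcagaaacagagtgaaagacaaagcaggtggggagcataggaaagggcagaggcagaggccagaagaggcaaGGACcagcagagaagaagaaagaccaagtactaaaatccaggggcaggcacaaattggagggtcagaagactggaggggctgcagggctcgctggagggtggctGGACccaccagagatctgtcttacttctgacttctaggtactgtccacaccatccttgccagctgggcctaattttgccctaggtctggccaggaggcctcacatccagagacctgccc
The UEVLD window is chr11:18588685-18588984 on the minus strand, and the peak lay on the opposite strand in 12 of 12 lists. It covered the first 176 bases of the window, from 18588809 on (median of the list starts), and these bases hold 2 of the 6 GTCC. The RNF214 window is chr11:117232421-117232720 on the plus strand, with an opposite-strand peak in 12 lists over its first 120 bases and the only GTCC. The DDX41 window is chr5:177516912-177517211 on the minus strand, with an opposite-strand peak in 11 lists over its first 177 bases and all 5 GTCC. The CHRNA10 window is chr11:3671335-3671634 on the minus strand. Its peak lay on the strand of the gene in 11 lists and covered the first 81 bases with 1 of the 2 GGAC.

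These are short motifs: GGAC occurred in 66.4% of all 34961 windows of the table and GTCC in 66.1%, with no allowance for overlaps between motifs. A match is a description of the letters and not a mapped site. UEVLD encodes a protein with a ubiquitin-conjugating-enzyme-like domain, DDX41 a DEAD-box RNA helicase, and CHRNA10 a subunit of nicotinic acetylcholine receptors. The remaining windows named by the same rule were those of XBP1, a transcription factor of the unfolded protein response, with an opposite-strand peak in 11 lists, and ANKRD36B, with a same-strand peak in 10. The XBP1 peak was missing from OVCAR8 knockdown list 1, and the ANKRD36B peak was missing from both OVCAR8 control lists. The DDX41 peak was missing from the RKO control list, and the CHRNA10 peak from the RKO knockdown list. Intergenic peaks reached into the windows of 243 genes in all, on the strand of the gene in 123 and on the opposite strand in 125, and for 28 genes they did so in 6 or more lists.

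Fold enrichment at the UEVLD window was 7.67 and 8.51 in OVCAR8 knockdown, against 13.7 and 13.4 in OVCAR8 control. It was 7.46 and 6.88 in SKOV3 knockdown, against 8.78 and 7.58 in SKOV3 control. The score in LOVO was 14.6 in the knockdown list, against 10.7 in the control list, and in RKO it was 23.1 in the knockdown list, against 10.95 in the control list. By percentile within its list, the peak stood at 84.9 and 82.8 in SKOV3 knockdown, against 82.7 and 77.2 in SKOV3 control, and at 91.9 in RKO knockdown, against 94.98 in RKO control. The order by percentile was thus the opposite of the order by fold or score in these lines, and no direction is read from this window. Folds and scores are the authors' own values and are not on one scale across lists.

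The labels and the peaks did not match for some lists, which bears on all knockdown comparisons. Of the intergenic peaks in OVCAR8-labelled knockdown lists, 92.8% were overlapped by a peak of a SKOV3 control list, against 43.9% by a peak of an OVCAR8 control list (means over 4 pairs of lists). Of the intergenic peaks in SKOV3-labelled knockdown lists, the mean was 80.3% for OVCAR8 control lists and 39.99% for SKOV3 control lists. The ovarian antigen gene MUC16 carried 0 peaks in both OVCAR8 knockdown lists, against 5 in each OVCAR8 control list. It carried 5 and 6 peaks in the SKOV3 knockdown lists, against 0 in both SKOV3 control lists. PAX8, a transcription factor of the Müllerian tract, likewise carried 0 peaks in both OVCAR8 knockdown lists, against 6 in each control list. It carried 5 and 4 peaks in SKOV3 knockdown, against 3 in each SKOV3 control list. PAX8 was not particular to the ovarian lists: it carried 0 peaks in LOVO knockdown, against 1 in LOVO control, and 0 in RKO knockdown, against 5 in RKO control. WT1 and SOX17 carried no peak in any list.

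The RKO knockdown list also stood apart. Only 17.4% of its intergenic peaks were overlapped in the RKO control list, whereas 73.9% of the LOVO knockdown peaks were overlapped in the LOVO control list. SKOV3 control lists overlapped more of the RKO knockdown peaks than the RKO control list did, 19.2% (mean over 2 lists). The RKO knockdown list held 2232 intergenic regions found in no other list, more than each of the other 11, whose numbers ran from 6 to 720. Ovarian lists each have a replicate list that shares most of their peaks, so their numbers are low by design. The lists without a replicate held 210 in LOVO knockdown, 656 in LOVO control and 720 in RKO control. RKO knockdown also had the most intergenic peaks of any list, 3407. CDX2, an intestinal transcription factor, carried 0 peaks in the RKO knockdown list, against 3 in the RKO control list, and 3 in LOVO knockdown, against 4 in LOVO control. The other intestinal genes checked, CDX1, VIL1, CDH17 and LGR5, carried no peak in either RKO list, and of the 5 intestinal genes 4 carried a peak in LOVO knockdown and 4 in LOVO control. The blood-cell gene PTPRC and the liver gene ALB carried no peak in any list. Groups were kept as labelled, and which lists carry a wrong label was not tested. With the ovarian knockdown lists exchanged, the means over lines of the number, share, clustered share and distance are the same by construction, and their exact permutation p-values were 0.458, 1, 0.139 and 0.444. In both exchanged pairs all knockdown lists lay below all control lists in these 4 measures.

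**Figure D1:**
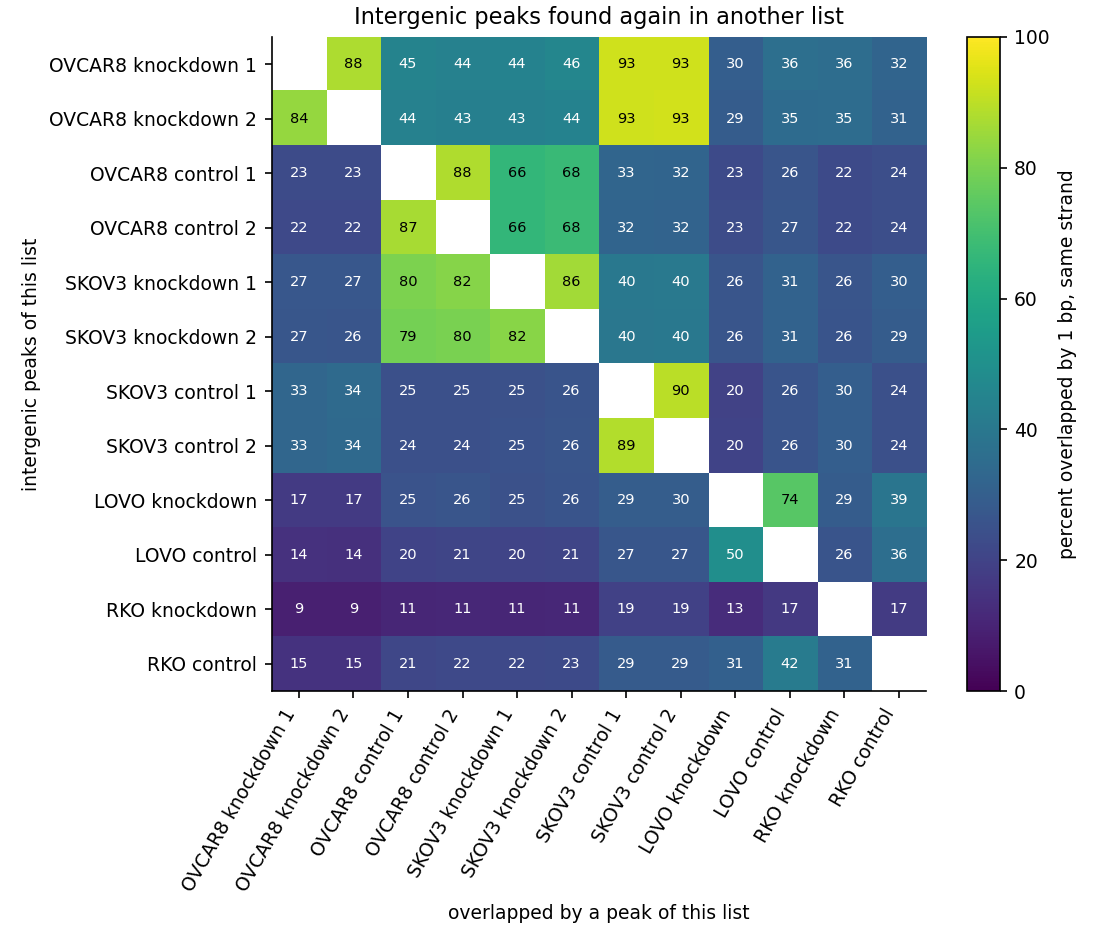
Percent of the intergenic peaks of each list (rows) overlapped by at least 1 bp on the same strand by a peak of each other list (columns), over all 12 lists. The OVCAR8 knockdown rows are brightest at the SKOV3 control columns (mean 92.8%) and the SKOV3 knockdown rows at the OVCAR8 control columns (mean 80.3%), for SKOV3 apart from the other replicate of the same group (86.3% and 82.2%); the OVCAR8 knockdown lists share less with each other (87.6% and 84.1%).

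The number of intergenic peaks was lower in the knockdown lists of OVCAR8, SKOV3 and LOVO and higher in that of RKO. OVCAR8 held 913 and 954 in knockdown, against 1782 and 1786 in control. SKOV3 held 1493 and 1538 in knockdown, against 2232 and 2218 in control. LOVO held 1543 in knockdown, against 2282 in control, and RKO held 3407 in knockdown, against 1912 in control. In OVCAR8 and SKOV3 the numbers of the knockdown and control lists did not overlap. LOVO and RKO have 1 list per group, so overlap could not be seen there. Averaged over the lines, the log2 difference was -0.31, 0.809 times the control number, with lower numbers in 3 of 4 lines. The exact two-sided permutation test within lines gave p = 0.417, and 0.5 adjusted over 9 tests. Its smallest possible p over 144 arrangements is 0.0139. Without the RKO lists the log2 difference was -0.68, with an exact permutation p of 0.0278. That is the smallest p that 72 arrangements can give, it has to come out wherever all knockdown lists of the remaining lines lie below all control lists, and the line left out was the one of opposite sign. It is unadjusted, and no call is made from it, here or for the measures below. With an equal number of the 15484 strongest peaks per list the log2 difference was 0.0013 (exact permutation p = 0.986). Knockdown lists also held fewer peaks of all kinds in each line. OVCAR8 held 15484 and 15744 peaks in all in knockdown, against 28237 and 28774 in control. SKOV3 held 26178 and 26865 in knockdown, against 28918 and 29102 in control. LOVO held 31060 in knockdown, against 36242 in control, and RKO 34015, against 37398. The share of peaks is therefore given next.

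The intergenic share of peaks was 5.90% and 6.06% in OVCAR8 knockdown, against 6.31% and 6.21% in OVCAR8 control. It was 5.70% and 5.72% in SKOV3 knockdown, against 7.72% and 7.62% in SKOV3 control. LOVO had 4.97% in knockdown (95% exact binomial interval 4.73% to 5.22%), against 6.30% in control (6.05% to 6.55%). RKO had 10.02% in knockdown (9.70% to 10.3%), against 5.11% in control (4.89% to 5.34%). These intervals cover counting error only. The share was lower with knockdown in 3 of 4 lines and higher in RKO, and the mean difference was 0.33 percentage points (exact permutation p = 1, adjusted p = 1). Without the RKO lists it was -1.19 points (exact permutation p = 0.0278).

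**Figure D2:**
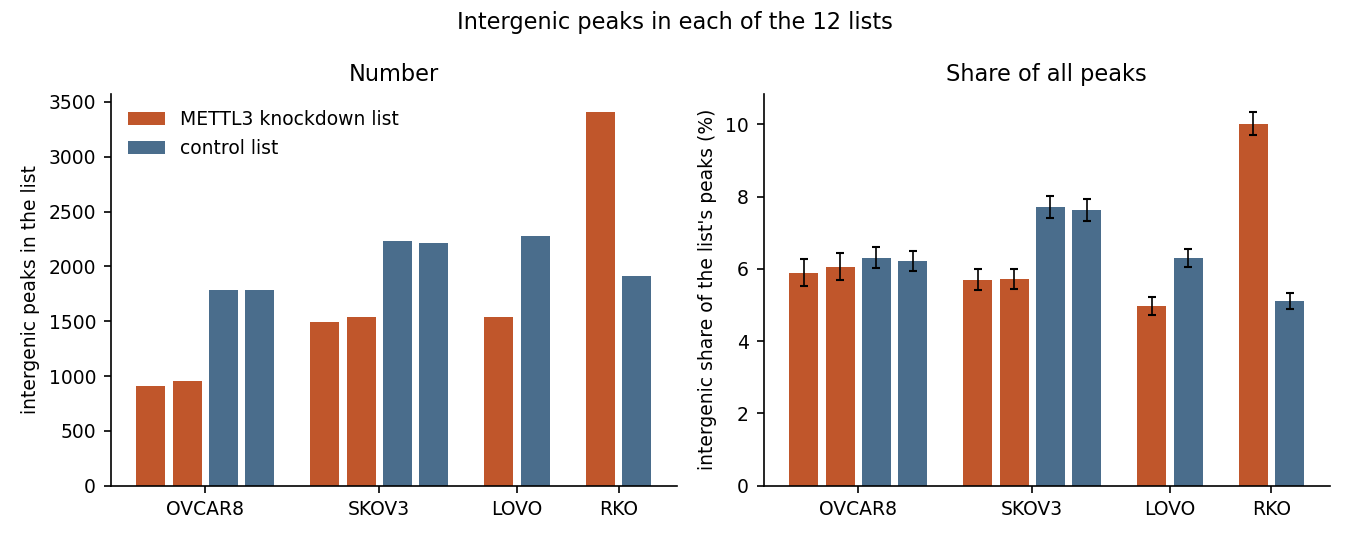
Number of intergenic peaks (left) and their share of the list's peaks in percent (right) in each of the 12 lists, knockdown lists left of control lists within a line; bars are single lists and error bars are 95% exact binomial intervals. The RKO knockdown list has the highest share, 10.02%, and the LOVO knockdown list the lowest, 4.97%.

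Most intergenic peaks lay within 10 kb of a gene, 61.4% to 73.4% of the peaks of a list. The share of intergenic sequence that lies this near to a gene was not counted. The median distance to the nearest gene was between 3767 and 5809 bases over the 12 lists, and 46.5% to 56.8% of the peaks of a list lay within 5 kb. Between 4.50% and 11.1% lay over 50 kb away. In OVCAR8 the median was 4308 and 4272 bases in knockdown, against 4698 and 4660 in control. In SKOV3 it was 4271 and 4466 bases in knockdown, against 5760 and 5809 in control. In LOVO it was 3767 bases in knockdown, against 4818 in control, and in RKO 5219 in knockdown, against 3996 in control. Peaks of the knockdown lists thus lay nearer to genes in OVCAR8, SKOV3 and LOVO and farther in RKO. The mean difference in log10 distance was -0.038 (exact permutation p = 0.444, adjusted p = 0.5). Without the RKO lists it was -0.089 (exact permutation p = 0.0278), with an equal number of peaks per list -0.081 (exact permutation p = 0.111), and for peaks over 10 kb from a gene -0.019 (exact permutation p = 0.333).

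The gene nearest to an intergenic peak was protein-coding for 42.4% to 55.1% of the peaks of a list. It was a long non-coding RNA gene for 21.03% to 30.7% and a pseudogene not classed as transcribed for 13.4% to 19.4%. For a further 3.72% to 8.18% it was a transcribed pseudogene. The strand of the nearest gene was known for 44.8% to 59.0% of peaks, since the table used for strands covers 46.0% of the genes. Among peaks past the end of such a gene, 67.7% to 76.7% lay on the strand of the gene. Among peaks before its start the share was 46.7% to 54.7%, near equal numbers on both strands. All 12 lists thus had the higher same-strand share downstream. Within 1 kb before the start, 557 peaks lay on the strand of the gene and 730 on the opposite strand, over all lists. Between 1 and 5 kb past the end, 2077 lay on the strand of the gene and 594 on the opposite strand. These are counts over lists that share loci, so no test was made of them.

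Within 10 kb, the gene itself mostly carried a peak too when the downstream peak was on its strand. Only peaks on the gene's own strand were counted for the gene, also where the intergenic peak lay on the opposite strand. The share of all genes with such a peak was not counted. For same-strand peaks within 10 kb past the end of a gene, the gene had a peak on its own strand in the same list for 74.1% to 86.4% of them. For opposite-strand peaks within 10 kb past the end this was 22.4% to 42.0%. Within 10 kb before the start, the gene carried a peak for 51.7% to 65.8% of the same-strand peaks and for 43.1% to 65.3% of the opposite-strand ones.

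Intergenic peaks were narrower and weaker than genic ones. Their median width was 242 to 288 bases over the lists, against 292 to 326 bases for genic peaks. The width ratio was 0.874 on average, and intergenic peaks were narrower in 12 of 12 lists (log2 difference -0.19, exact sign-flip permutation p = 0.000488, the smallest possible, adjusted p = 0.00146). Strength was the fold or score of a peak, ranked within its list. The median intergenic peak stood at percentile 39.4 to 48.5 of its list, against percentile 49.97 to 51.2 for the median genic peak. The difference averaged -4.88 percentile points, was negative in 12 of 12 lists (exact sign-flip p = 0.000488, adjusted p = 0.00146) and was widest in RKO, at -9.70 points. The 12 lists share loci and lines, so they are not 12 independent samples. With the 4 line means as units no p below 0.125 is possible.

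A peak counted as clustered if another peak of its class lay within 10 kb on the same strand. By this measure 45.1% to 66.8% of intergenic peaks were clustered, against 63.4% to 73.9% of genic peaks. The difference was -10.5 points on average and negative in 12 of 12 lists (exact sign-flip p = 0.000488, adjusted p = 0.00146). The difference no longer passed the test when only intergenic peaks over 10 kb from a gene were used (-3.82 points, exact sign-flip p = 0.0713). With genic peaks thinned at random to the number of intergenic ones of their list, 9.06% to 16.1% of them would be expected to have a neighbour. The difference would then be 47.0 points (added after the data were seen). Random thinning takes away neighbours at the same locus, so a low genic value follows from the thinning itself. Peaks per base of genic and intergenic sequence were not held alike, and no order at like density is read from this value.

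Clustering of intergenic peaks was lower in the knockdown lists of 3 lines. It was 56.6% and 56.8% in OVCAR8 knockdown, against 66.8% and 66.2% in OVCAR8 control. In SKOV3 it was 59.6% and 60.1% in knockdown, against 65.1% and 65.3% in control. LOVO had 45.1% in knockdown, against 56.8% in control, and RKO had 58.9% in knockdown, against 53.9% in control. The mean difference was -5.45 points (exact permutation p = 0.125, adjusted p = 0.188), and -8.95 points without the RKO lists (exact permutation p = 0.0278). With an equal number of peaks per list it was -2.44 points (exact permutation p = 0.528).

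Pooled over the 12 lists, the intergenic peaks fell into 4567 clusters, of which 1697 were a single peak and 586 held 10 peaks or more. Of these clusters 79 had peaks in every list and 2153, or 47.1%, had peaks in 1 list. The cluster with most peaks was on the minus strand of chr17:43231726-43298335 in the array of U2 small nuclear RNA genes, between CCDC200 and further U2 copies. U2 is a core RNA of the spliceosome, and RNU2-1 with 11 other small nuclear RNA copies lay inside. It held 18 and 22 peaks in OVCAR8 knockdown, against 24 and 28 in control, and 27 and 26 in SKOV3 knockdown, against 25 and 27 in control. LOVO had 10 peaks in knockdown, against 14 in control, and RKO 6 in knockdown, against 5 in control. The ovarian lists were all above the colorectal ones there.

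The next clusters were in ribosomal DNA on the short arm of chromosome 21, on the minus strand beside the 45S ribosomal RNA genes RNA45SN2, RNA45SN3 and RNA45SN1. At chr21:8221505-8248819 there were 17 and 18 peaks in OVCAR8 knockdown, against 15 and 15 in control, and 10 and 11 in SKOV3 knockdown, against 13 and 12 in control. LOVO had 4 in knockdown and 4 in control, and RKO had 0 in knockdown, against 5 in control. Both OVCAR8 knockdown lists were thus above their controls, and the SKOV3 and RKO knockdown lists below theirs. The 5S ribosomal RNA array at chr1:228608679-228642518, on the plus strand, had peaks in all 12 lists, between 1 and 9. It held 9 and 9 in OVCAR8 knockdown, against 5 and 5 in control, and 4 and 4 in SKOV3 knockdown, against 9 and 9 in control. These arrays are made of near-identical copies, so how reads were split among copies is uncertain, and the counts are uncertain with them.

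A pair of clusters shared by all lists lay past the ends of protein-coding genes, on the strand of the gene. One began 1.11 kb past WDR4, a subunit of a tRNA methyltransferase, at chr21:42827695-42841982. It held 5 and 5 peaks in OVCAR8 knockdown, against 9 and 11 in control, and 10 and 9 in SKOV3 knockdown, against 5 and 6 in control. LOVO had 3 in knockdown, against 4 in control, and RKO 3 in knockdown, against 4 in control. The other began 2.39 kb past BLCAP, at chr20:37502055-37515025. It held 3 and 3 peaks in OVCAR8 knockdown, against 3 and 4 in control, and 6 and 5 in SKOV3 knockdown, against 9 and 7 in control. LOVO had 7 in knockdown, against 8 in control, and RKO 2 in knockdown, against 7 in control. Knockdown lists were thus below control lists at WDR4 in 3 of 4 lines, with SKOV3 the exception. At BLCAP all knockdown lists were below all control lists in SKOV3, LOVO and RKO, and the OVCAR8 lists met at 3 peaks.

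The clusters with the largest differences in the ovarian lines had opposite signs in OVCAR8 and SKOV3. At chr1:172840612-172933653, minus strand, a cluster had the gene AIMP1P2 inside it. It lay 4.56 kb from the long non-coding gene LOC105371618 and 105.5 kb from TNFSF18. There were 11 and 11 peaks in OVCAR8 knockdown, against 0 and 0 in control. The same cluster held 0 and 0 in SKOV3 knockdown, against 26 and 26 in control, and none in LOVO or RKO. TNFSF18 encodes a cytokine of the tumour necrosis factor family. At chrX:142123721-142175489, plus strand, a cluster lay 214 kb beyond the cancer-testis gene MAGEC1. LOC100533669 and LOC392555 lay inside it, and its closest peak was 0.782 kb from a gene. There were 0 and 0 peaks in OVCAR8 knockdown, against 21 and 18 in control. That cluster held 14 and 15 in SKOV3 knockdown, against 0 and 0 in control. Both clusters thus had peaks in the control lists of one line and the knockdown lists of the other, as with MUC16. The largest fall in OVCAR8 was at chr8:127108292-127186576, minus strand, beside the long non-coding gene CASC19, with 0 and 0 peaks in knockdown, against 22 and 22 in control. It held 6 and 6 in SKOV3 knockdown, against 0 and 0 in control. This cluster was not confined to the ovarian lists: LOVO had 4 in knockdown, against 5 in control, and RKO 0 in knockdown, against 7 in control. The clusters were chosen for such differences, so these values are a description.

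In LOVO the largest fall was at chr5:33087923-33117647, minus strand, 38.5 kb from the long non-coding gene LOC105374715, with 3 peaks in knockdown, against 14 in control, and none in any other list. The largest rise was beside MYEOV at chr11:69297930-69325201, plus strand, with 9 peaks in knockdown, against 3 in control. That cluster also held 9 and 11 peaks in SKOV3 control, 6 and 5 in OVCAR8 knockdown and 2 in RKO control. In RKO the largest rises were at chr9:40867753-40932469, minus strand, with 38 peaks in knockdown, against 2 in control, and at chr2:94496024-94570802, plus strand, with 31 in knockdown, against 0 in control. The largest fall was at chr4:9596583-9654540, plus strand, with 0 peaks in knockdown, against 11 in control. These RKO clusters were not confined to RKO. SKOV3 control lists held 8 and 10 peaks in the chr9 cluster, 9 and 9 in the chr2 cluster and 14 and 15 in the chr4 cluster. OVCAR8 knockdown lists held 2 and 2, 2 and 2, and 5 and 7 peaks in the same order. Over all clusters with a peak in the line, OVCAR8 had every knockdown list below every control list in 604 of 1329, SKOV3 in 750 of 1817, LOVO in 798 of 1663 and RKO in 820 of 2777. Every knockdown list was above in 268, 418, 317 and 1703 of them, in the same order. RKO thus had more clusters above than below, and the other lines more below than above. The direction in each line was that of its number of intergenic peaks, so these counts are not a separate result. Clusters of genic peaks were not counted in this way, and knockdown lists held fewer peaks of all kinds in each line. LOVO and RKO have no replicate lists, so any difference in peak number counted there. Their counts are therefore not comparable with those of the ovarian lines.

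The clusters farthest from any gene, among those in 6 lists or more, lay 3607 kb (minus strand) and 3608 kb (plus strand) from EMBP1 at chr1:125179050-125183198, and 2165 kb from LOC101929923 at chr16:38266912-38276419. All ovarian lists had 1 to 3 peaks in each of them, and the colorectal lists had 0. The next cluster by this rule lay 337 kb from ZNF970P at chr12:37236181-37238076, minus strand. It had 0 peaks in SKOV3 control list 1, 1 or 2 in the other ovarian lists and 0 in the colorectal lists. These loci lie near centromeres, where gene tables are sparse and copies of sequence are many.

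**Figure D3:**
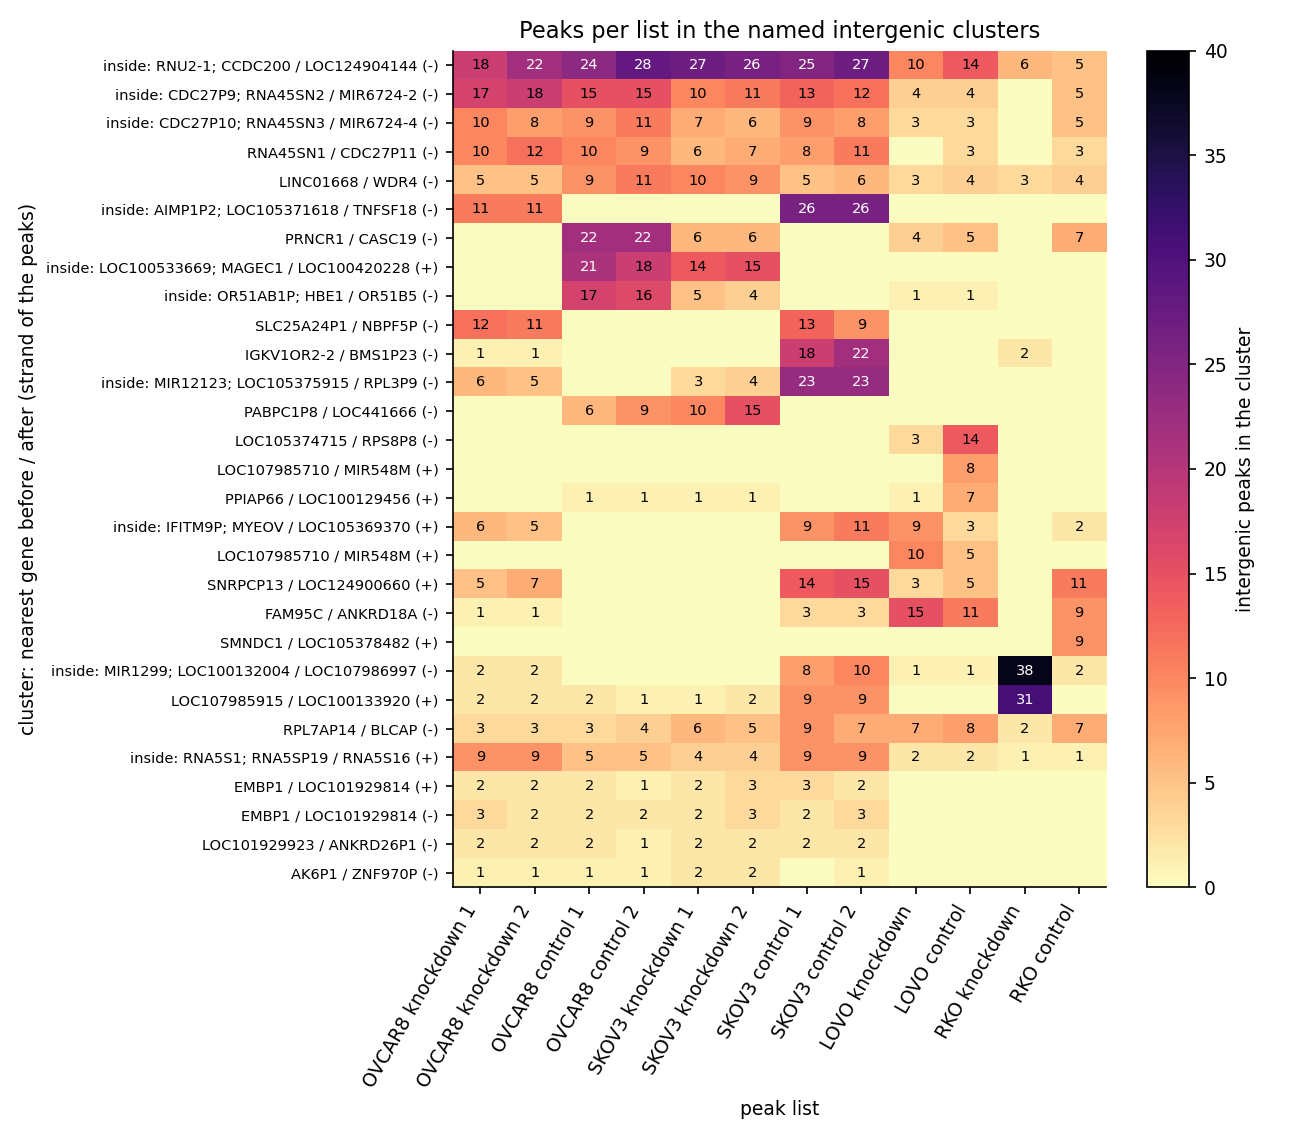
Intergenic peaks per list (columns) in each named cluster (rows, with a gene inside where there is one, then the nearest genes before and after, and the strand of the peaks); colour and digits give the number of peaks, and empty cells are 0. The U2 array is filled in all 12 lists, whereas the AIMP1P2 and MAGEC1 clusters are filled in control lists of one ovarian line and knockdown lists of the other.

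Intergenic regions were more specific to one line than genic regions of like strength. A control region was called specific if no control peak of another line overlapped it. In OVCAR8, 800 of 1512 intergenic control regions were specific, 52.9%, where 26.4% was expected from genic regions in the same strength decile. Over all regions 27.6% were specific in OVCAR8. In SKOV3 it was 1047 of 1929, 54.3%, where 25.5% was expected, with 27.3% over all regions. In LOVO it was 1157 of 2282, 50.7%, where 23.6% was expected, with 24.2% over all regions. In RKO it was 878 of 1912, 45.9%, where 28.6% was expected, with 27.4% over all regions. The excess averaged 24.9 points and was positive in 4 of 4 lines (exact sign-flip p = 0.125, the smallest that 4 lines allow, adjusted p = 0.188). For intergenic regions over 10 kb from a gene it was 43.3 points. These values rest on lists labelled control, and whether any of those carries a wrong label was not tested.

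Counted over merged regions, 75.6% of intergenic regions with a control peak were found in the control lists of 1 line only, against 52.3% of genic regions. In all 12 lists there were 75 of 8478 intergenic regions, 0.885%, against 4591 of 78607 genic regions, 5.84%. Neither strength nor the length of merged regions was held alike in these counts.

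Intergenic control regions were also lost more often in knockdown lists than genic regions of like strength. A control region, present in every control list of the line, was called lost if no knockdown peak overlapped it by 1 bp on its strand. Input libraries were not analysed here, so less m6A and less RNA at a region cannot be told apart. In OVCAR8, 1120 of 1512 intergenic regions were lost, 74.1% (95% exact binomial interval 71.8% to 76.3%), where 57.6% was expected from genic regions of like strength. Over all regions 57.8% were lost in OVCAR8. In SKOV3, 1367 of 1929 were lost, 70.9% (68.8% to 72.9%), where 43.3% was expected, with 44.4% over all regions. In LOVO, 1150 of 2282 were lost, 50.4% (48.3% to 52.5%), where 39.3% was expected, with 37.8% over all regions. In RKO, 1312 of 1912 were lost, 68.6% (66.5% to 70.7%), where 62.5% was expected, with 60.1% over all regions.

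Observed minus expected loss was largest in SKOV3, at 27.5 points, followed by OVCAR8 with 16.5, LOVO with 11.05 and RKO with 6.08 points. The mean was 15.3 points, positive in 4 of 4 lines (exact sign-flip p = 0.125, the smallest possible, adjusted p = 0.188). With an equal number of peaks per list the values were 30.3 points in SKOV3, 23.1 in OVCAR8, 11.1 in RKO and 10.7 in LOVO, so the order of LOVO and RKO turned. The excess was not particular to the knockdown lists of the own line. Over the 10 pairings of control regions with knockdown lists of another line, the ovarian exchange left out, it ranged from 8.37 to 29.2 points. For LOVO control regions it was 11.4 points against OVCAR8, 14.1 against RKO and 20.4 against SKOV3 knockdown lists, each above the 11.05 points against LOVO knockdown. Loss with knockdown and difference between lists of any kind cannot be told apart here. With the ovarian knockdown lists exchanged, OVCAR8 control regions against SKOV3-labelled knockdown lists gave 22.9% lost where 14.2% was expected, with 14.6% over all regions, an excess of 8.64 points. SKOV3 control regions against OVCAR8-labelled knockdown lists gave 58.0% where 44.8% was expected, with 44.3% over all regions, an excess of 13.2 points. The mean over the 4 lines was then 9.73 points. Between replicate lists of one group, 10.3% to 17.8% of intergenic peaks had no match in the other replicate, 0.827 to 1.62 points over expectation.

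The excess was present at most strengths. In the strongest decile of regions, 69.2% of intergenic regions were lost in OVCAR8, against 27.2% of genic regions. In SKOV3 it was 96 of 160 intergenic regions, against 24.8% of genic regions. In RKO it was 49.2%, against 24.2% of genic regions. In LOVO it was 13 of 157 intergenic regions, 8.28% (4.48% to 13.7%), against 3.40% of genic regions. In the weakest decile in RKO the order was the other way, 77.4% (71.1% to 82.9%) of intergenic regions against 79.6% of genic ones, within the interval.

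**Figure D4:**
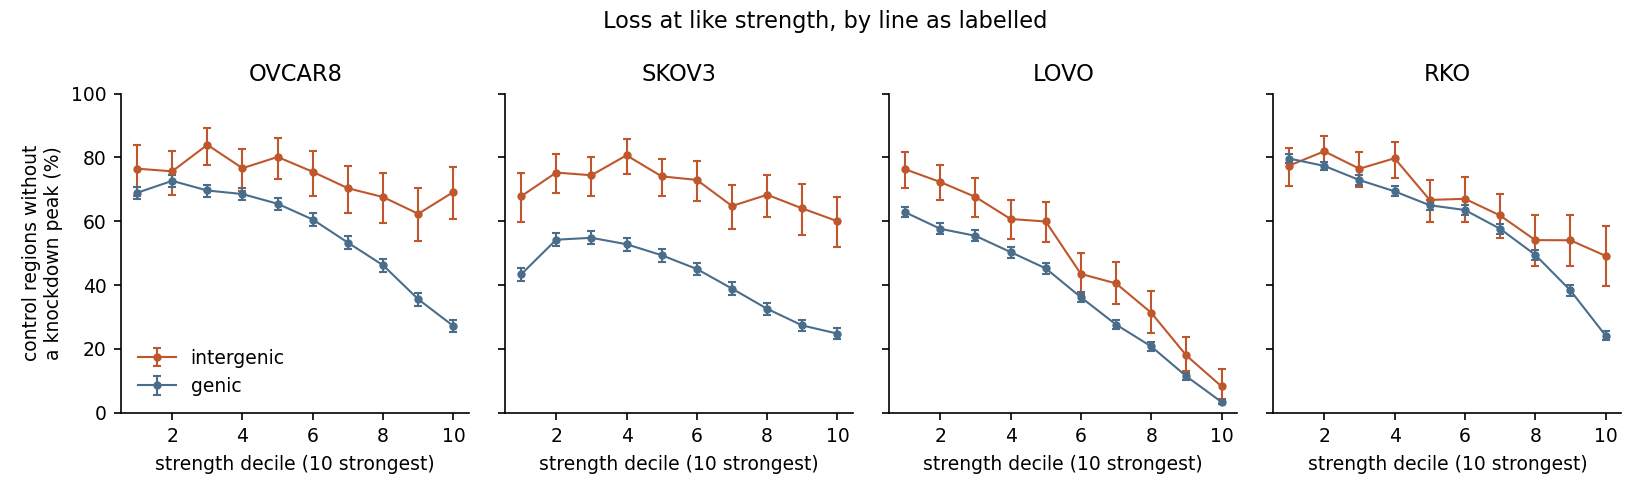
Percent of control regions without a knockdown peak by decile of strength (1 weakest, 10 strongest), for intergenic and genic regions in each line as labelled; error bars are 95% exact binomial intervals. Intergenic regions lie above genic ones in all deciles of OVCAR8, SKOV3 and LOVO and in all but the weakest of RKO.

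Loss was higher the farther a region lay from a gene. In LOVO, 43.7% of the 1160 regions within 5 kb were lost, 55.5% of the 953 regions at 5 to 50 kb and 67.5% of the 169 regions beyond 50 kb, 4.90, 15.5 and 28.1 points over expectation. In OVCAR8 the excess was 8.21, 23.8 and 31.0 points in the same order, and in SKOV3 it was 17.4, 35.3 and 41.2 points. In RKO it was 1.71, 11.1 and 17.2 points, the last over 86 regions. With the ovarian knockdown lists exchanged, the excess for OVCAR8 control regions was 6.07, 9.998 and 17.4 points, and for SKOV3 control regions 5.18, 20.1 and 20.5 points. The order held in each of these 6 comparisons, and no test was made of it.

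**Figure D5:**
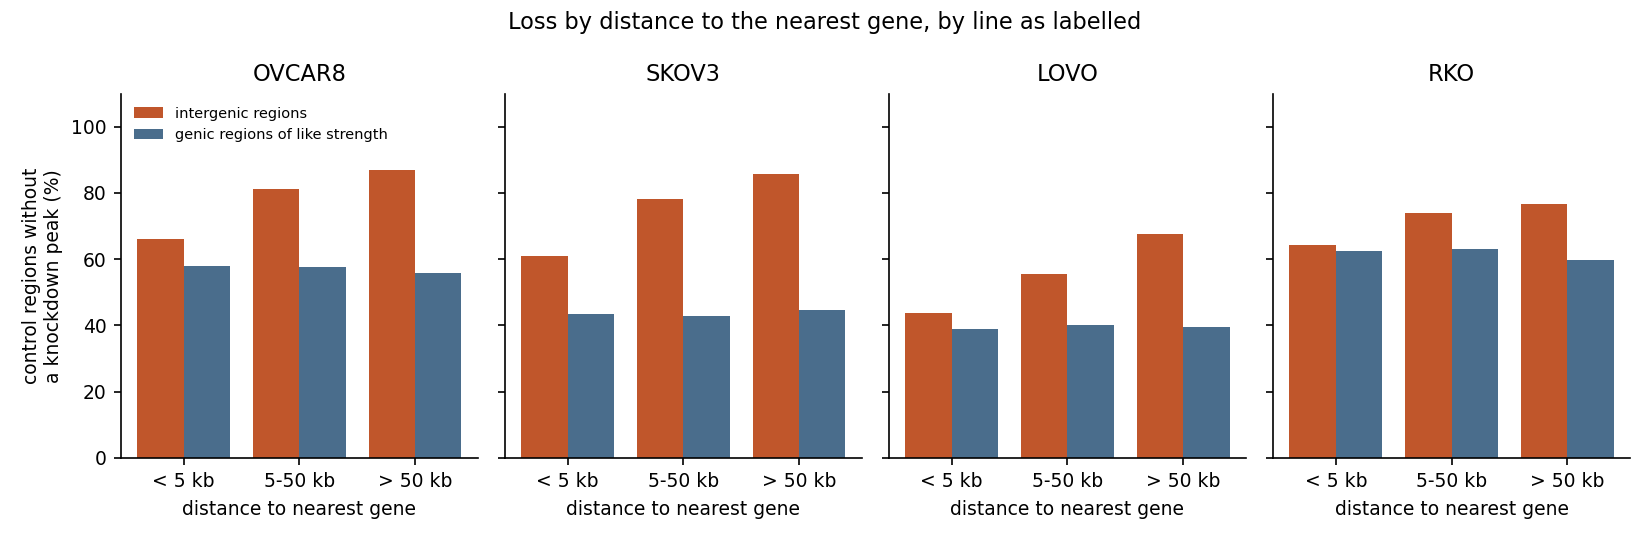
Percent of intergenic control regions without a knockdown peak by distance to the nearest gene, beside the percent expected from genic regions of like strength, in each line as labelled. Beyond 50 kb the loss is 86.8% for OVCAR8, 85.8% for SKOV3, 67.5% for LOVO and 76.7% for RKO.

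Values by position beside the gene were less spread. In LOVO, 42.8% of regions within 10 kb past the end of a gene and on its strand were lost, 3.31 points over expectation, and 45.9% of opposite-strand regions within 10 kb before a start, 7.06 points over. In OVCAR8 these were 6.78 and 16.1 points over expectation, and in SKOV3 11.4 and 21.7 points. In RKO the downstream regions were 4.49 points over and the upstream opposite-strand regions -6.50 points. The percent lost also went up with the number of regions in a cluster in OVCAR8, SKOV3 and RKO. In LOVO it was 49.9% for regions alone, 51.5% in clusters of 2 to 4 regions and 48.6% in clusters of 5 or more. The excess over expectation went up in each line. In RKO the excess was 1.64 points for regions alone, 7.53 points in clusters of 2 to 4 regions and 17.6 points in clusters of 5 or more. In LOVO it was 9.83, 11.9 and 12.3 points.

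Knockdown regions with no control peak were counted in the same way. In LOVO, 402 of 1543 intergenic knockdown regions had none, 26.1%, where 27.4% was expected, with 26.9% over all regions. In OVCAR8 it was 402 of 781, 51.5%, where 25.6% was expected, with 25.9% over all regions. In SKOV3 it was 664 of 1233, 53.9%, where 38.2% was expected, with 36.5% over all regions. In RKO it was 2813 of 3407, 82.6%, where 55.6% was expected, with 54.9% over all regions. Observed minus expected was thus -1.36 points in LOVO and 25.9, 15.6 and 26.9 points in OVCAR8, SKOV3 and RKO, in which knockdown and control lists shared fewer peaks than in LOVO.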

How the data were processed

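The series holds 32 libraries, 16 of MeRIP and 16 of input, and the 12 peak lists were analysed. The submitters' processing notes name MACS2 2.2.7.1, HISAT2 2.1.0, Bowtie2 2.4.2, Trim Galore 0.6.6 and the build hg38, without roles. For OVCAR8 and SKOV3 the authors deposited, per library, a fold enrichment (a linear ratio) per peak and p and q values as −log10. The colorectal lists, 1 per group, hold a deposited score for each peak, at least 3, whose meaning no header gives. The use of the second replicate in them was not stated. Peak names show separate calling per strand. Read totals are not given, so depth is unknown.

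Strength was fold or score, ranked within a list. The gene table has 59098 genes on these chromosomes, 1 placement each, and lacks strands, exons and repeats, so strands came from the promoter table. No genome sequence was used. A region joins overlapping peaks of one strand and has to occur in all lists of its group. Expected loss is that of genic regions in the same strength decile. Knockdown and control were compared with exact permutation tests within lines, and intergenic with genic values with exact sign-flip tests over lists or lines, all two-sided, with a threshold of 0.05 and Benjamini-Hochberg adjustment over 9 tests. The code was tested on simulated data. Python 3.11.15, pandas 2.3.3 and scipy 1.17.1 were used.

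Named clusters are chained where gaps on a strand are at most 10 kb. They are the 6 with most peaks, the 3 largest falls and 2 largest rises per line, the 4 in all lists with most peaks and the 4 farthest from genes. The 6 promoter windows named are those hit in most lists, with genes on chromosome 8 left out. The members and the rules were chosen with earlier results of these data known.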

Additional observations from a re-analysis of the deposited data

Results flagged for a closer look

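Each group has at most 2 lists, so no list could be tested as an outlier within its group. A difference between lines appeared in 4 results. In these, every knockdown list lay below every control list in OVCAR8, SKOV3 and LOVO and above in RKO. LOVO and RKO have 1 list per group, so any difference there counted as full separation. None of these differences between lines was tested. The log2 number of intergenic peaks differed by 0.83 in RKO, against -0.93 in OVCAR8, -0.55 in SKOV3 and -0.56 in LOVO. The intergenic share of peaks differed by 4.90 percentage points in RKO, against -0.28, -1.96 and -1.33 points in the same order of lines. The clustered share of intergenic peaks differed by 5.04 points in RKO, against -9.82, -5.34 and -11.7 points. The log10 distance to the nearest gene differed by 0.116 in RKO, against -0.038, -0.122 and -0.107. All 4 rest on the single RKO knockdown list, of whose intergenic peaks 17.4% were overlapped in the RKO control list.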

How the results depend on the processing

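Loss and specificity kept their sign under each alternative: loss ranged from 9.73 to 25 points over 17 alternatives and specificity from 24.2 to 43.3 points over 15, with no p below 0.125 possible. The lowest loss came with the ovarian knockdown lists exchanged, an alternative chosen after seeing the data, and the highest with only regions over 10 kb from a gene. Without the RKO lists, the line of opposite sign, number (-0.68 log2), clustered share (-8.95 points), distance (-0.089 log10) and share, which turned to -1.19 points, each had p = 0.0278 by the exact permutation test, the smallest possible and unadjusted, from which no call is made. With an equal number of the 15484 strongest peaks per list, number turned to 0.0013 log2 (p = 0.986, exact permutation test) and share to -0.019 points (p = 0.972, exact permutation test). With 4 line means, width (-0.20 log2), strength (-5.39 points) and clustering (-11.8 points) cannot pass, since 0.125 is the smallest p. Over the 7 lists left without those that stand apart they were -0.18 log2, -3.56 points and -11.4 points (exact sign-flip p = 0.0156 each, the smallest possible). Clustering was -3.82 points over 10 kb from genes. It was 47.0 points with genic peaks thinned at random to the number of intergenic ones, which breaks up genic neighbours and so cannot decide the order. For these changes, beyond the smaller numbers of lists or units, the cause was not tested. Leaving out each ovarian replicate list in turn ended no call and turned none: number ranged from -0.31 to -0.30 log2 and loss from 14.7 to 15.3 points. The replicate numbers of OVCAR8 and SKOV3 are only shared numbers: deviations over 23 chromosomes correlated at 0.109 and -0.090. With a replicate block the number was -0.31 log2 (p = 0.406, exact permutation test over 64 arrangements), and no call changed. Precision is limited by 1 list per group in LOVO and RKO, by unknown depth and by a gene table without strands for most genes.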
